A study of Homo sapiens with 8 samples.

Results

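Antisense lncRNA genes carry the symbol of a neighboring gene followed by -AS1, and their expression after PRMT9 KD was examined in 2 human AML lines. Of 1039 such genes in the deposited tables, 179 had at least 20 read counts in each of the 4 shCtrl libraries. They are the genes described here, and 1 more that passed this minimum (ITGB2-AS1) was left out by name. The shCtrl counts chose the genes, so their control levels are a description. They make up 179 of 57722 genes listed for both lines, and 859 antisense genes fell below the minimum. Just inside it were AZIN1-AS1, CBR3-AS1, DICER1-AS1 and MANEA-AS1, each with a lowest shCtrl count of 20. Just outside were FAM83H-AS1 with a lowest count of 19 and FOXP4-AS1, SRP54-AS1 and USP3-AS1 with 18.

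Poly(A)-selected RNA was sequenced from Molm13 and THP1 cells, established AML lines of monocytic type with MLL fusions. Cells were wild type with a control shRNA (shCtrl) or carried a PRMT9 KD by shRNA (shPRMT9), and all 4 groups received Dox to induce the hairpins. Each group had 2 libraries, and nothing in the labels says that they came from separate cultures, so p-values measure only the spread between these libraries. The shPRMT9 libraries numbered 1 and 2 were taken as replicates, although separate hairpins could carry the same numbers. PRMT9 is an arginine methyltransferase that methylates the splicing factor SF3B2.

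Antisense lncRNAs are transcribed from the strand opposite their partner gene. Some start beside the partner's promoter and run away from it (divergent transcripts), and others read through its introns and exons. Many are spliced poorly, stay in the nucleus and are short-lived, being degraded by the nuclear RNA exosome, so that only their polyadenylated share reaches a poly(A) library. Single members are known to act on their partner's locus or as scaffolds in the nucleus, and for most no function is established.

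Depth was from 18720950 to 21241742 counts on genes per library in Molm13 and from 25127517 to 27356870 in THP1. Every THP1 library was thus deeper than every Molm13 library. PRMT9 (in CPM, the read count scaled to the total of its library) fell from 16.3 and 14.6 to 2.19 and 2.64 CPM in Molm13 and from 12.4 and 12.9 to 2.36 and 2.71 CPM in THP1, log2 fold changes of −2.68 and −2.29. Of 8 monocytic AML markers, 7 (all but CD14) were at 1 CPM or more in both shCtrl libraries of each line. The 8 summed to 1274 to 1284 CPM in Molm13 shCtrl and 1891 CPM in both shPRMT9 libraries. In THP1 they summed to 2662 to 2667 CPM in shCtrl and 3873 to 4038 CPM in shPRMT9. LYZ alone was at 635.5 and 629.3 CPM in Molm13 shCtrl and 1893 and 1909 CPM in THP1 shCtrl. MPO fell from 60.8 and 61.1 to 40.2 and 42.4 CPM in Molm13. In THP1, MPO fell from 8.25 and 6.87 to 4.25 and 4.14 CPM and CEBPA from 358 and 349 to 323 and 313 CPM. All other markers, and CEBPA in Molm13, were higher in shPRMT9. Markers of T and erythroid cells summed to under 1 CPM in all 8 libraries, whereas the B cell list was carried by PAX5. It was at 42.6 and 42.0 CPM in Molm13 shCtrl and 39.6 and 38.7 CPM in shPRMT9, and at 2.50 and 3.14 against 11.73 and 10.98 CPM in THP1. The names of the THP1 libraries also hold the letters OCI, MEIS1 was at 0.274 and 0.146 CPM in THP1 shCtrl, and 4 HOXB genes summed to 12.7 to 14.3 CPM in THP1 and 0.197 to 0.321 CPM in Molm13. MEIS1 is usually high in lines with an MLL fusion, so its level goes against the label. HOXA9 was at 53.39 and 54.32 CPM in THP1 shCtrl, beside 62.73 and 61.55 CPM in Molm13 shCtrl. The identity of the line was not tested, and THP1 below means the libraries labelled THP1. The 3 HOXA and MEIS1 markers summed to 215 to 224 CPM in Molm13 and 89.7 to 101 CPM in THP1. The part of the monocytic markers and PAX5 in the results that follow was not tested.

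GENCODE 29 classed 123 of the 179 genes as antisense, 26 as processed transcripts and 25 as lincRNAs, and the other 5 as pseudogenes (3) or protein coding (2). A partner was found by symbol for 175. In 77 pairs the 5′ ends lay within 1000 bases of each other on opposite strands. These are called divergent below for their close starts alone. Overlap was not checked for them, and some, such as PSMB8-AS1 and RNASEH1-AS1, share exon bases with their partner. Of the 179 genes, 27 now have a name ending in -DT for divergent transcript. In 82 pairs the gene bodies overlapped in another way, in 14 the antisense gene lay within its partner, and in 2 the bodies did not overlap. A median of 4.22% of the antisense exon length lay over exons of the partner, 58 pairs shared none, and the share passed 50% in 5, with the highest value of 90.5% in PYCARD-AS1. The strand setting of the counting is not given in the sources used here, so reads from such shared exons cannot be told apart. NUTM2A-AS1 and NUTM2B-AS1 are near-identical copies, and their counts are uncertain too.

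Control levels were low for most of the genes. By length, the median was 1.44 RPKM (read counts scaled by exon length and library total) in Molm13 shCtrl and 1.57 RPKM in THP1 shCtrl, and 64 and 60 of the 179 were under 1 RPKM. In 126 of 175 pairs in Molm13 and 129 in THP1, the antisense gene had the lower RPKM. The most abundant were LRRC75A-AS1 (now SNHG29, a host of small nucleolar RNAs) at 406 RPKM in Molm13 and 74.5 in THP1, OIP5-AS1 at 18.7 and 31.9 RPKM, and FGD5-AS1 at 17.96 and 28.06 RPKM. At the other end, CBR3-AS1, LAMTOR5-AS1 and KIF9-AS1 had 0.133, 0.236 and 0.266 RPKM in Molm13, and DARS-AS1, CPB2-AS1 and USP2-AS1 had 0.149, 0.215 and 0.220 RPKM in THP1.

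In Molm13, PRMT9 KD moved more antisense genes up than down. A gene was called when its p in edgeR's quasi-likelihood test, adjusted by Benjamini-Hochberg over all genes tested, was under 0.05 and its fold change was over 1.5. By this rule 42 of the 179 rose, 18 fell and 119 were not called, where 16.3% of all tested genes were called higher and 12.8% lower. Among the 11639 genes that met the same minimum of counts, 14.0% were called higher and 13.5% lower. The groups did not overlap in 128 of the 179, where 87.0% of the genes with the same minimum did not overlap. The median log2 fold change of the antisense genes was 0.07, with a range from −1.23 to 1.80, beside a median of −0.04 for the genes with the same minimum.

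In THP1, far fewer passed. There 7 rose, 10 fell and 162 were not called, where 5.78% of all tested genes were called higher and 3.70% lower, and 4.46% and 3.28% among genes with the same minimum. The groups did not overlap in 106 of the 179, beside 72.3% of those genes, and the median log2 fold change was −0.03, within a range from −1.09 to 1.33. The antisense genes were measured less precisely than other genes, with a median standard error of 0.15 in Molm13 and 0.16 in THP1 beside 0.06 in both lines for all genes with the minimum. Without the fold limit, 96 of the 179 members in Molm13 and 50 in THP1 had an adjusted p under 0.05 from edgeR. Among the genes with the same minimum, 75.0% in Molm13 and 45.4% in THP1 did so.

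The share called higher in Molm13 moved with the control level, and it did so in protein coding genes as well. Of the antisense genes with a mean of 20 to 50 shCtrl counts, 33.3% (17 of 51) were called higher, beside 41.1% of 472 protein coding genes and 16.8% of 196 other lncRNA genes at that level. From 50 to 100 counts the shares were 20.9%, 36.2% and 22.9%, and from 100 to 300 counts they were 22.6% (12 of 53), 352 of 1598 and 12.8%. At 300 counts and more, 12.5% of 32 antisense genes, 8.90% of 7913 protein coding genes and 13.9% of 72 other lncRNA genes were called higher. The antisense share thus lay between those of the other 2 classes at 20 to 50 counts. It was below both at 50 to 100 counts, above both at 100 to 300, and between them at 300 and more. Whether the classes differ was not tested. The level and the fold change of a gene both use the same shCtrl counts. The trend with level is therefore a description, and how much of it comes from this shared use was not tested. In THP1 the antisense genes were called higher in 3.12%, 4.65%, 4.92% and 2.33%, from the lowest level to the highest, on 1 to 3 genes each. The shares of protein coding genes there were 15.7%, 10.8%, 8.22% and 3.39%. Those of other lncRNA genes were 7.97%, 3.18%, 1.84% and 2.08%.

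**Figure D1:**
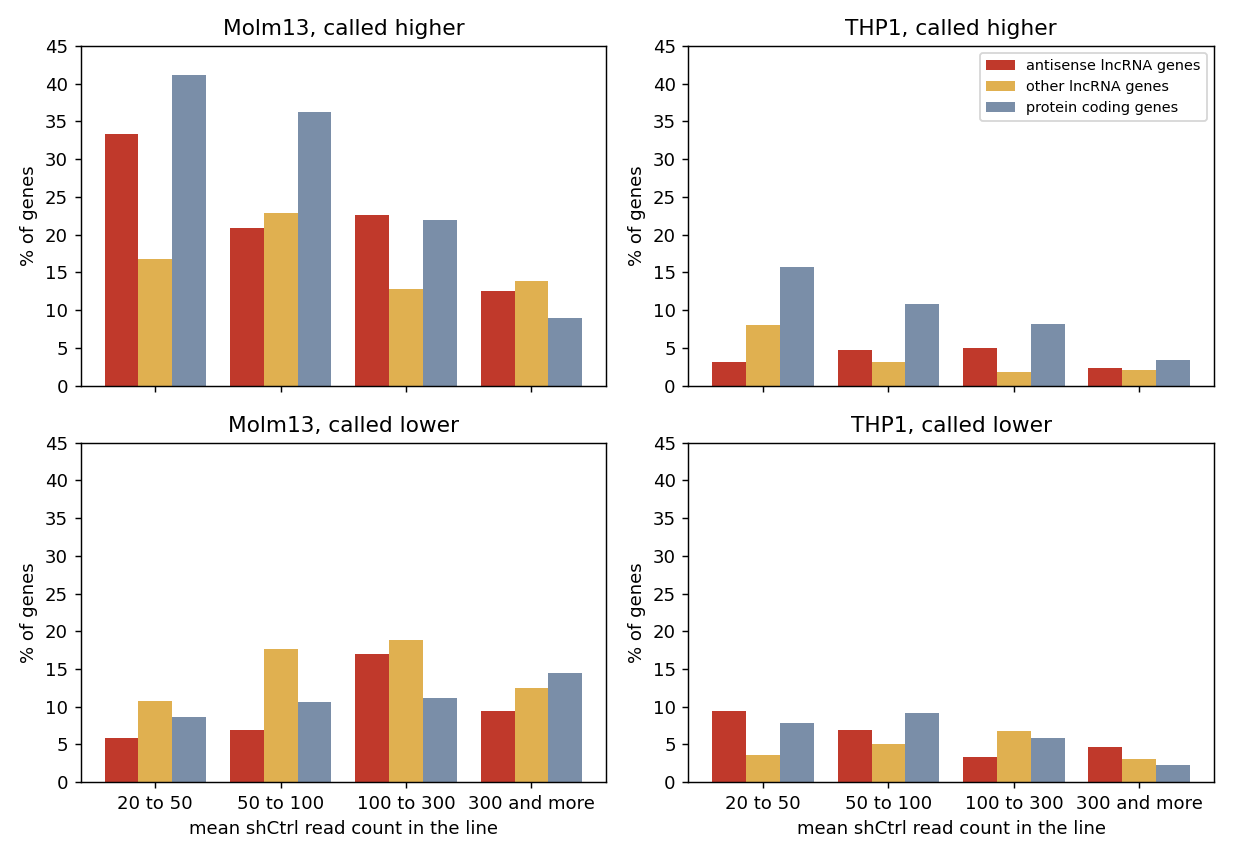
Percent of genes called higher (top) or lower (bottom) after PRMT9 KD in Molm13 (left) and THP1 (right), by mean shCtrl read count in the line, for the 179 antisense lncRNA genes, other lncRNA genes and protein coding genes, all with at least 20 counts in each shCtrl library. In Molm13 the share called higher falls with level for protein coding genes, from 41.1% to 8.90%, and the antisense bars go from 33.3% to 12.5%. Levels and fold changes use the same shCtrl counts.

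Only 4 antisense genes were called the same way in both lines, 3 up and 1 down, a share of the 179 to be read beside the 3.19% of genes with the same minimum that were called the same way in both. PSMB8-AS1, MSC-AS1 and GAS6-AS1 rose and PRKCQ-AS1 fell. A further 2, NAPA-AS1 and ADIRF-AS1, were called in opposite directions. Across the 179, the log2 fold changes of the lines had the same sign in 59.2%, beside 57.2% for the genes with the same minimum, and Pearson's r was 0.20 beside 0.30. These are descriptions across genes, which are not independent replicates.

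**Figure D2:**
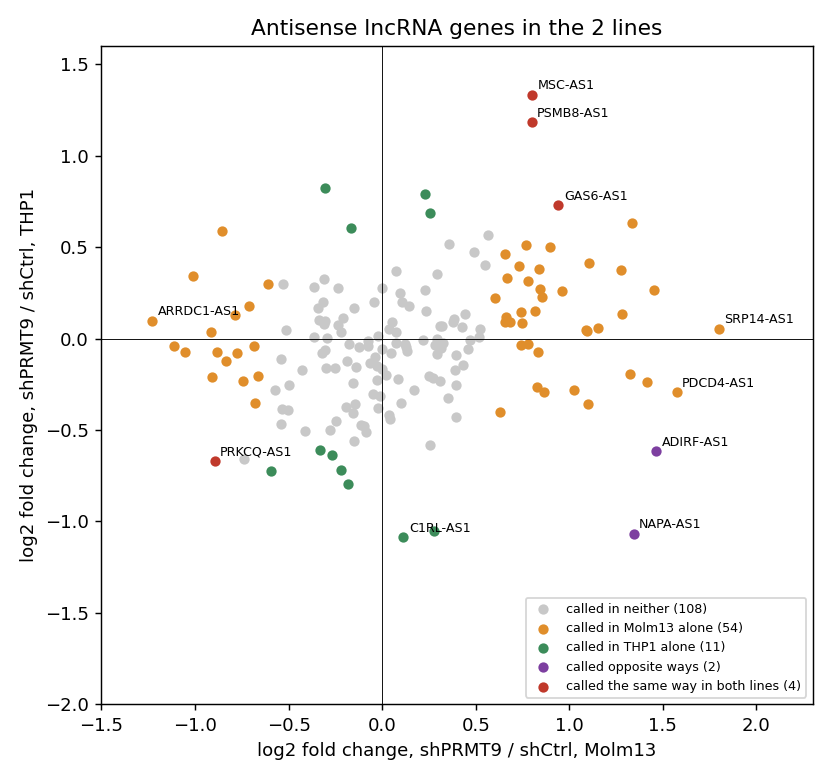
Log2 fold change (shPRMT9 over shCtrl) of the 179 antisense lncRNA genes in Molm13 (x axis) and THP1 (y axis), one point per gene, colored by the line or lines in which it was called. Most colored points lie along the x axis (54 called in Molm13 alone, 11 in THP1 alone), 4 genes lie in the corners of shared direction, and NAPA-AS1 and ADIRF-AS1 lie at lower right.

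PSMB8-AS1 (ENSG00000204261; chromosome 6, 32844086 to 32846495 on GRCh38, plus strand) lies in the MHC class II region and starts 617 bases from the start of PSMB8, which encodes an immunoproteasome subunit induced by IFN-γ. It was at 9.09 and 8.66 CPM in Molm13 shCtrl and 16.1 and 14.9 CPM in shPRMT9. In THP1 it went from 16.5 and 17.6 to 36.5 and 39.4 CPM, the highest pair of values among the 4 groups. Both shPRMT9 libraries lay above both shCtrl libraries in each line. The log2 fold change was 0.80 in Molm13 (standard error 0.10, edgeR adjusted p = 1.3e-09) and 1.18 in THP1 (standard error 0.07, edgeR adjusted p = 7.3e-14).

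PSMB8 itself rose less than its antisense gene. It was at 112 and 113 CPM in Molm13 shCtrl and 131 and 132 CPM in shPRMT9, a log2 fold change of 0.22 that was not called. In THP1 it rose from 114 and 112 to 168 and 166 CPM, or 0.59 on the log2 scale, just past the fold limit. Of the antisense exons, 31.7% lie over PSMB8 exons. The 300 bases around the PSMB8-AS1 start are shown because this gene rose in both lines and its window held both IFN-related motifs that were searched. They come from RefSeq (GRCh38.p14, chr6:32843836-32844135, plus strand). Capitals mark a match to GAAA, any 2 bases and GAAA again (the core of an IFN-stimulated response element), which begins 44 bases before the start, and one to TTCNNNGAA (the core of an IFN-γ activated site), which begins at base 19 of the transcript.
PSMB8-AS1: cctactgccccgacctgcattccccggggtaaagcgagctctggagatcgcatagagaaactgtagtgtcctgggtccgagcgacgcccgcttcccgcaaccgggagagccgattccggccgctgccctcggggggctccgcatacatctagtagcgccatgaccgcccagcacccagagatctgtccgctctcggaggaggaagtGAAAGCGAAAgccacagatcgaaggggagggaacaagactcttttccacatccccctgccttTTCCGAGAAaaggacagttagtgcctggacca
On either strand, the first pattern was found in 3.65% of 27305 RefSeq promoter windows and in 4 of the 138 antisense genes that had a window (PSMB8-AS1, FAM13A-AS1, FOXD2-AS1 and LBX2-AS1). The second was in 7.88% of all windows and in 10 of the 138. An E-box (CACGTG) was in 7.43% of all windows and 15 of the 138, and a TATA box (TATAAA) in 12.0% and 7. A match of letters does not show that a factor binds there, and of the 4 genes with the first pattern PSMB8-AS1 alone was called in either line. LBX2-AS1, which also holds both IFN-related patterns, was called in neither.

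MSC-AS1 (ENSG00000235531; chromosome 8, 71828167 to 72118393) overlaps MSC, which encodes the basic helix-loop-helix repressor musculin. Its level went from 6.93 and 7.80 to 13.2 and 12.5 CPM in Molm13 and from 5.43 and 5.48 to 12.8 and 14.2 CPM in THP1. In neither line did the groups overlap, and the log2 fold changes were 0.80 and 1.33 (standard error 0.11 in each). MSC rose with it and by more, by 1.35 in Molm13 (2.11 and 2.58 to 5.98 and 6.03 CPM) and 2.39 in THP1 (1.76 and 2.56 to 10.6 and 11.7 CPM). Of the antisense exons, 6.59% lie over MSC exons.

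GAS6-AS1 (ENSG00000233695; chromosome 13, 113815630 to 113845744) lies over GAS6, the gene of a secreted ligand of the AXL and MERTK receptors. It rose from 3.93 and 3.29 to 6.62 and 7.30 CPM in Molm13 and from 8.25 and 8.88 to 13.3 and 14.5 CPM in THP1, log2 fold changes of 0.94 (standard error 0.15) and 0.73 (standard error 0.10). The 2 groups did not overlap in either line. Its partner went the other way in THP1, where GAS6 fell from 94.0 and 87.4 to 51.5 and 53.5 CPM (log2 fold change −0.76, standard error 0.05). In Molm13, GAS6 was at 160 and 175 CPM in shCtrl and 188 and 187 CPM in shPRMT9, which was not called.

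PRKCQ-AS1 (ENSG00000237943; chromosome 10, 6580419 to 6616452, plus strand) starts 118 bases from PRKCQ, the gene of protein kinase C theta, and shares no exon bases with it. It fell from 11.1 and 9.62 to 5.61 and 5.56 CPM in Molm13 and from 5.39 and 5.89 to 3.35 and 3.62 CPM in THP1. Every shPRMT9 library lay below the shCtrl libraries of its line, and the log2 fold changes were −0.89 (standard error 0.12) and −0.67 (standard error 0.15). PRKCQ did not follow, with log2 fold changes of −0.09 and −0.15, neither called.

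The largest rise in Molm13 was found for a gene of low control level. SRP14-AS1 (ENSG00000248508, now SRP14-DT; chromosome 15, 40039311 to 40067290, plus strand) had 1.67 and 1.57 CPM in shCtrl and 5.82 and 5.56 CPM in shPRMT9, or 1.80 on the log2 scale (standard error 0.19, edgeR adjusted p = 3.2e-11). In THP1 its libraries overlapped, at 2.19 and 3.0 CPM in shCtrl and 2.64 and 2.67 CPM in shPRMT9. SRP14, a subunit of the signal recognition particle, starts 123 bases away on the other strand and stayed at 110 and 116 CPM in Molm13 shCtrl against 115 and 107 CPM in shPRMT9. The 2 genes share no exon bases. The 123 bases follow the coordinates listed with the Molm13 counts, and the RefSeq starts behind the windows below lie at another distance. Their RefSeq start windows (GRCh38.p14, chr15:40039061-40039360 on the plus strand for SRP14-AS1 and chr15:40039153-40039452 on the minus strand for SRP14) are shown to make plain how close the starts of the rising and the level gene lie, with the 208 bases they have in common in capitals, read in opposite directions.
SRP14-AS1: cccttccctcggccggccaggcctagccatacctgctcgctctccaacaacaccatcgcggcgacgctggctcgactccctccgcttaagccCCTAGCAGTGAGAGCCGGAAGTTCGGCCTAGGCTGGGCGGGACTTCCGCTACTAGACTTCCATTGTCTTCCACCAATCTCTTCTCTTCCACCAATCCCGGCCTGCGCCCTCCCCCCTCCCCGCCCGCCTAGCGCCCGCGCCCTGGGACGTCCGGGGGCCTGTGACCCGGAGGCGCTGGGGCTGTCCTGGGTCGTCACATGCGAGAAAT
SRP14: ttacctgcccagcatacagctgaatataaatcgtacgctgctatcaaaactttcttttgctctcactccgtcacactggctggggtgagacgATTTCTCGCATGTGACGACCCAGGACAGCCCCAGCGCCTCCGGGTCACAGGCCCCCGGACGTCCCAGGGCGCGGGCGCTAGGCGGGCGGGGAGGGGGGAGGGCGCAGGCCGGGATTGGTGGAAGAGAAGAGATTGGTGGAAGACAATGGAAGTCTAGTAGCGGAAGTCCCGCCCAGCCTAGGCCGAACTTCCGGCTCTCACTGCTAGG

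PDCD4-AS1, in contrast, rose beside a partner that rose. It went from 1.67 and 1.22 to 4.49 and 4.19 CPM in Molm13 (log2 fold change 1.57, standard error 0.22), while PDCD4, a tumor suppressor that inhibits translation, went from 275 and 289 to 597 and 576 CPM (1.05, standard error 0.03). Their starts are 438 bases apart and they share no exon bases. In THP1, PDCD4-AS1 had 1.45 and 1.57 CPM in shCtrl and 1.18 and 1.23 CPM in shPRMT9, and PDCD4 had 169 and 164 against 116 and 110 CPM. Neither was called there.

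The other 4 of the 6 largest rises in Molm13 were ADIRF-AS1, CCDC18-AS1, OSER1-AS1 and NAPA-AS1, with log2 fold changes of 1.46, 1.46, 1.42 and 1.35. OSER1-AS1, a divergent transcript 169 bases from the oxidative stress gene OSER1, rose from 1.92 and 1.32 to 4.38 and 4.33 CPM beside a partner at 34.9 and 34.3 against 45.9 and 47.3 CPM, which was not called (0.43). CCDC18-AS1 rose from 14.2 and 13.3 to 37.3 and 38.3 CPM, and its partner CCDC18, which encodes a coiled-coil protein, fell from 55.8 and 54.0 to 33.7 and 35.4 CPM (−0.67). The groups did not overlap in any of these. PSMG3-AS1 was the only other antisense gene in Molm13 called against a called partner. It rose from 4.82 and 3.70 to 7.69 and 8.24 CPM (0.90, standard error 0.14), and PSMG3, a proteasome assembly chaperone, fell from 31.6 and 32.6 to 15.4 and 14.9 CPM (−1.09, standard error 0.07).

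Falls in Molm13 were led by ARRDC1-AS1 (ENSG00000203993; chromosome 9, 137615332 to 137618906). It went from 8.50 and 7.65 to 3.69 and 3.25 CPM (log2 fold change −1.23, standard error 0.15), and ARRDC1, an arrestin-domain adaptor, had 25.1 and 22.5 CPM in shCtrl against 22.8 and 23.7 CPM in shPRMT9. TMEM147-AS1 fell from 19.0 and 20.6 to 9.40 and 8.99 CPM (−1.11), with TMEM147, an endoplasmic reticulum membrane protein, at 55.4 and 51.9 against 36.3 and 36.9 CPM (−0.56, not called). SLC25A5-AS1 had 1.33 and 1.27 CPM in shCtrl and 0.481 and 0.753 CPM in shPRMT9 (−1.05), beside −0.34 for SLC25A5, a mitochondrial ADP/ATP carrier. Its call was lost in DESeq2 and without shCtrl replicate 1 or shPRMT9 replicate 1 of Molm13.

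Among the 6 largest falls, 3 were divergent genes whose partner fell by about as much. NUP50-AS1 (now NUP50-DT) starts 60 bases from the nucleoporin gene NUP50 by the coordinates listed with the Molm13 counts. The RefSeq starts behind the windows below lie at another distance. NUP50-AS1 went from 6.73 and 6.64 to 3.15 and 3.48 CPM (log2 fold change −1.01, standard error 0.16). NUP50 went from 137 and 133 to 72.3 and 67.8 CPM (−0.95, standard error 0.04). USP46-AS1 and RNASEH1-AS1 had −0.91 and −0.91 beside −0.95 and −0.95 for USP46, a deubiquitinase, and RNASEH1, which cuts RNA in RNA-DNA hybrids. The USP46-AS1 call was lost in DESeq2. USP46-AS1 shares no exon bases with its partner, and RNASEH1-AS1 10.3%. The windows of NUP50-AS1 (chr22:45163732-45164031, minus strand) and NUP50 (chr22:45163675-45163974, plus strand), from RefSeq on GRCh38.p14, are shown as the pair that fell together, with their 243 common bases in capitals.
NUP50-AS1: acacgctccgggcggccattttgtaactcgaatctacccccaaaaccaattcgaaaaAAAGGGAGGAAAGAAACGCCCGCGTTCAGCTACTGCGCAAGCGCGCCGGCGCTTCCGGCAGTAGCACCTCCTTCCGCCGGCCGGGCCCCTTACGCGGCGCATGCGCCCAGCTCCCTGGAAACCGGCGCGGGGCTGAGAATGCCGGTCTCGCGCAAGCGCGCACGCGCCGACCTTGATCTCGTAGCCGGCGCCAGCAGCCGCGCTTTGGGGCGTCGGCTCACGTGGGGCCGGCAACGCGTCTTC
NUP50: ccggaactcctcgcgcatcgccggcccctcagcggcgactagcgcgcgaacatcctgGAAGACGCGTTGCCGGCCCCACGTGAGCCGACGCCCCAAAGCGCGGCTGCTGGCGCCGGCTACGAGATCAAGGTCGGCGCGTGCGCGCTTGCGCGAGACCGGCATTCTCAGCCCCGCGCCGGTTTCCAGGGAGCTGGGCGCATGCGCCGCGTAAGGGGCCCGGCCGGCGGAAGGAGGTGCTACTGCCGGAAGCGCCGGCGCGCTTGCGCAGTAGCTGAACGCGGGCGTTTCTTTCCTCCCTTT

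In THP1, the rises other than those shared with Molm13 were those of ASH1L-AS1, PARD6G-AS1, VIM-AS1 and PRR34-AS1, with log2 fold changes of 0.82, 0.79, 0.69 and 0.60. VIM-AS1 went from 7.50 and 7.09 to 11.9 and 11.1 CPM, and VIM, the intermediate filament gene vimentin, from 402 and 385 to 935 and 934 CPM (1.28). Of the VIM-AS1 exons, 32.2% lie over VIM exons. ASH1L-AS1 was at 0.938 and 1.35 CPM in shCtrl and 1.73 and 2.27 CPM in shPRMT9, and its call was lost without shCtrl replicate 1 or shPRMT9 replicate 2 and in DESeq2. PARD6G-AS1 went from 3.36 and 2.05 to 4.61 and 4.54 CPM, a call lost without shCtrl replicate 2, and the PRR34-AS1 call was lost in DESeq2, with library size alone and without shCtrl replicate 1 or shPRMT9 replicate 1. PARD6G-AS1 stood beside PARD6G, a cell polarity gene, at −0.53, which was not called.

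The falls in THP1 were led by C1RL-AS1, NAPA-AS1 and SOCS2-AS1, all under 3 CPM there. C1RL-AS1 fell from 1.21 and 1.54 to 0.551 and 0.716 CPM (log2 fold change −1.09), while C1RL, a complement C1r-like protease, was not called there (0.16) and rose in Molm13 (1.00), where C1RL-AS1 was not called (0.11). SOCS2-AS1 had 0.821 and 1.02 CPM in shCtrl and 0.512 and 0.358 CPM in shPRMT9 (−1.05), and its partner SOCS2, a suppressor of cytokine signaling, fell from 3.44 and 2.34 to 1.5 and 1.27 CPM (−1.03). Leaving out any one of the 4 libraries ended the SOCS2-AS1 call, the C1RL-AS1 call was lost without shCtrl replicate 2 or shPRMT9 replicate 1, and DESeq2 called neither. JMJD1C-AS1, which lies within the gene of the JMJD1C histone demethylase, fell from 11.8 and 11.3 to 6.81 and 6.25 CPM (−0.80, standard error 0.11), with JMJD1C at −0.06.
MAN1B1-AS1 and CAPN10-AS1 completed the 6 largest falls, at −0.73 and −0.72. Both are divergent from partners that were not called, MAN1B1, a mannosidase that trims glycoproteins in the secretory pathway (0.03), and CAPN10, a calpain protease (−0.14). The CAPN10-AS1 call was lost without shCtrl replicate 2 or shPRMT9 replicate 2, and DESeq2 called neither gene.

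**Figure D3:**
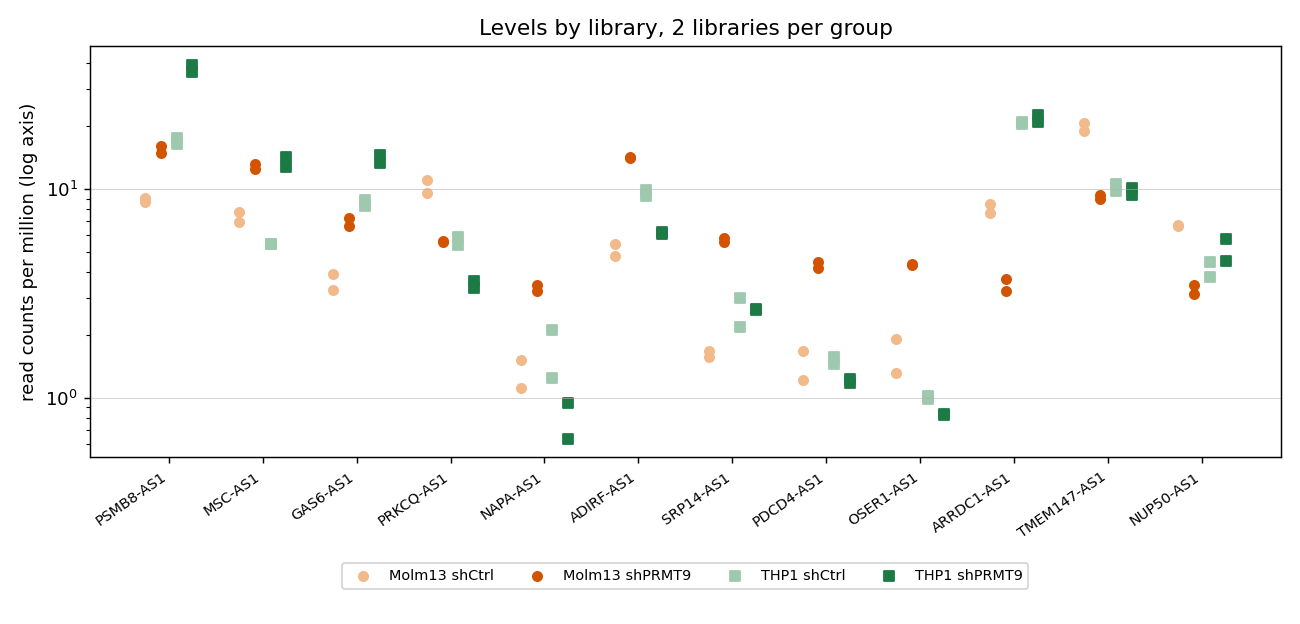
CPM (log axis) of 12 named antisense lncRNA genes in each of the 8 libraries, with Molm13 as circles and THP1 as squares, shCtrl in light and shPRMT9 in dark color. The first 3 genes rise and PRKCQ-AS1 falls in both lines, NAPA-AS1 and ADIRF-AS1 rise in Molm13 and fall in THP1, and the next 3 rise and the last 3 fall in Molm13.

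The shPRMT9 effect was then compared between the lines in a common fit of all 8 libraries. For 46 of the 179 genes the effect was called different, 17 of them higher in THP1 and 29 lower, where 20.9% of all tested genes and 27.3% of genes with the same minimum were called. NAPA-AS1 (ENSG00000268061; chromosome 19, 47484282 to 47501597) had the largest difference, −2.40 in THP1 relative to Molm13 (standard error 0.39, edgeR adjusted p = 1.6e-07). It rose from 1.52 and 1.11 to 3.26 and 3.48 CPM in Molm13 and went from 1.25 and 2.12 to 0.945 and 0.637 CPM in THP1. The fall in THP1 was not called without shCtrl replicate 2 or shPRMT9 replicate 2 or by DESeq2. NAPA, which encodes the alpha-SNAP of vesicle fusion, was at 22.5 and 21.8 against 17.1 and 16.2 CPM in Molm13 and rose from 47.3 and 46.6 to 72.7 and 71.6 CPM in THP1. So the antisense gene and NAPA had opposite signs in each line although 52.2% of the antisense exons lie over NAPA exons.

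ADIRF-AS1 (ENSG00000272734; chromosome 10, 86965345 to 86971311) followed with a difference of −2.07. It rose from 5.46 and 4.76 to 14.2 and 14.1 CPM in Molm13 (log2 fold change 1.46) and fell from 9.22 and 9.94 to 6.06 and 6.21 CPM in THP1 (−0.62, a call lost without shCtrl replicate 2). Its partner ADIRF, an adipogenesis regulator, had at most 0.11 CPM in any library and could not be tested. PDCD4-AS1, SRP14-AS1 and OSER1-AS1 came next, at −1.86, −1.74 and −1.65. The largest positive differences were those of RUSC1-AS1, NUP50-AS1, ARRDC1-AS1, ASH1L-AS1 and TMEM147-AS1, at 1.45, 1.36, 1.34, 1.14 and 1.08. Of these, RUSC1-AS1 had 4.03 and 2.08 CPM in Molm13 shCtrl and 1.28 and 2.07 CPM in shPRMT9, and its difference was not called without shCtrl replicate 1 of Molm13. The most abundant antisense gene, LRRC75A-AS1, was not called in either line, with 1530 and 1520 against 2030 and 2000 CPM in Molm13 (0.40) and 276 and 284 against 205 and 204 CPM in THP1 (−0.43). The difference of −0.81 was called.

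Next, each antisense gene was set beside its partner. Both genes could be tested in 159 pairs in each line. Their log2 fold changes had the same sign in 85 pairs in Molm13 (53.5%) and 90 in THP1 (56.6%), where the shares were 53.5% and 52.5% over all 2341 opposite-strand pairs in which both genes met the minimum. Across the pairs Pearson's r was 0.21 in Molm13 and 0.30 in THP1, beside 0.14 and 0.20 for those 2341 pairs. The 2 genes of a pair share libraries and, in part, exon sequence, so no test was made. By arrangement, the same-sign share in Molm13 was 50.6% of the 77 divergent pairs, 58.2% of 67 otherwise overlapping pairs and 6 of 13 pairs with the antisense gene inside its partner. In THP1 it was 54.5% of 77, 54.5% of 66 and 10 of 14. Among the 2341 pairs, those with 5′ ends within 1000 bases had 54.6% in Molm13 and 54.0% in THP1. Those that overlap with 5′ ends further apart had 52.3% and 51.1%.

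Of the 42 antisense genes that rose in Molm13, 8 had a partner called higher, 2 a partner called lower, 28 a partner that was not called and 4 one that could not be tested. The 8 were BAIAP2-AS1, CBR3-AS1, EPHA1-AS1, KCTD21-AS1, MSC-AS1, PDCD4-AS1, SBF2-AS1 and SH3BP5-AS1. Of these calls, that of KCTD21-AS1 was lost in DESeq2 and without shCtrl replicate 1 or shPRMT9 replicate 1, and those of SBF2-AS1 and SH3BP5-AS1 without shCtrl replicate 2. Of the 18 that fell, 6 had a partner called lower and none one called higher. They included DNAJC9-AS1, NUP50-AS1, RNASEH1-AS1, SLC25A25-AS1 and USP46-AS1. The DNAJC9-AS1 call was lost in DESeq2 and without shCtrl replicate 1 or shPRMT9 replicate 2, and the SLC25A25-AS1 call without shPRMT9 replicate 2. Beside the antisense genes not called in Molm13, 11 partners were called higher, 10 lower and 83 not called, and 11 could not be tested. In THP1 the same numbers were 1, 7, 135 and 15. Over all genes with the same minimum, 14.0% were called higher and 13.5% lower in Molm13, and 4.46% and 3.28% in THP1. Whether partner calls go with antisense calls was not tested. In THP1, 3 of the 7 that rose (MSC-AS1, PSMB8-AS1 and VIM-AS1) and 2 of the 10 that fell (FOXN3-AS1 and SOCS2-AS1) had a partner called the same way, and GAS6-AS1 and NAPA-AS1 were the pairs called in opposite directions.

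**Figure D4:**
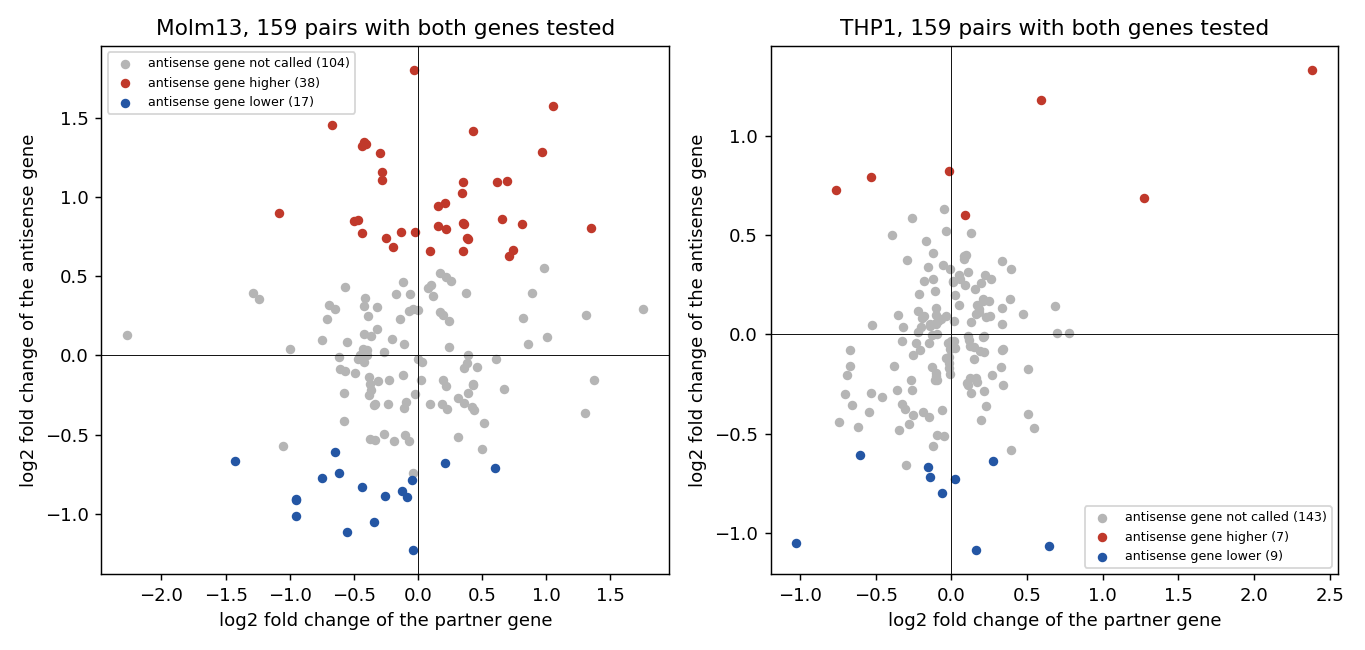
Log2 fold change of each antisense lncRNA gene (y axis) against that of its partner gene (x axis) in Molm13 (left) and THP1 (right), 159 pairs with both genes tested in each, colored by the call of the antisense gene. Genes called higher lie on both sides of 0 on the partner axis, and in Molm13 none of those called lower has a partner called higher. Of all genes with at least 20 counts in each shCtrl library, 14.0% were called higher in Molm13.

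By arrangement, 22 of the 77 divergent genes rose in Molm13 and 9 fell, and 3 rose and 3 fell in THP1. The shares over all genes with the minimum of counts were 14.0% higher and 13.5% lower in Molm13 and 4.46% and 3.28% in THP1. Of the 82 with another overlap, 20 rose and 7 fell in Molm13 and 4 rose and 4 fell in THP1. None of the 14 genes inside their partner was called higher in either line, 1 was called lower in Molm13 (EMC3-AS1, −0.79) and 3 in THP1 (JMJD1C-AS1, MBNL1-AS1 and FOXN3-AS1). The FOXN3-AS1 call was lost in 5 of 9 refits (in DESeq2, with RLE factors, with no filter, and without shCtrl replicate 1 or shPRMT9 replicate 2), and the MBNL1-AS1 call without shPRMT9 replicate 2. Whether the arrangements differ was not tested.

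By the role of the partner, the groups were small, and their counts stand beside the same shares over all genes (14.0% and 13.5% in Molm13, 4.46% and 3.28% in THP1). Of 4 genes beside partners of IFN and immune signaling (CD27-AS1, IL10RB-AS1, PSMB8-AS1 and SOCS2-AS1), PSMB8-AS1 rose in both lines and SOCS2-AS1 fell in THP1. That list was set by symbol and is not complete. PYCARD-AS1, which rose in Molm13 alone, and CARD8-AS1, called in neither line, have immune partners and lie outside it. Of 10 listed under transcription factors of blood cells and HOX, GAS6-AS1 rose in both lines, MAFG-AS1 fell in Molm13 and FOXN3-AS1 fell in THP1, but GAS6 is no transcription factor and entered that list through its name alone. Among 10 beside ubiquitin and proteasome genes, the calls in Molm13 included a rise of PSMG3-AS1 and a fall of USP46-AS1, and none was called in THP1. Of 4 beside mitochondrial genes, SLC25A5-AS1 and SLC25A25-AS1 fell in Molm13.
None of 7 genes beside cell cycle and DNA repair genes was called in either line. Of 7 beside zinc finger genes, ZNF561-AS1 rose in Molm13, of 5 beside genes of RNA binding DICER1-AS1 rose there, and of 5 beside genes of membrane traffic SBF2-AS1 rose there. The remaining 127 genes, with no listed role or no partner, held 35 of the rises and 14 of the falls in Molm13, and 5 and 8 in THP1.

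Several antisense genes that are studied in cancer or development did not pass in either line. TMPO-AS1 missed the fold limit in Molm13 (log2 fold change −0.57, 48.4 and 45.6 against 32.8 and 30.7 CPM), while TMPO, which encodes lamina-associated polypeptide 2, fell by 1.05 on the log2 scale. OIP5-AS1, a decoy for RNA-binding proteins and miRNAs, had −0.09 in Molm13 and −0.51 in THP1 (400 and 409 against 282 and 276 CPM). EPB41L4A-AS1 had 0.52 in Molm13 and 0.01 in THP1, and PSMA3-AS1, beside a proteasome subunit gene, had 0.09 and −0.22. ZEB1-AS1 (−0.25 and −0.16), GATA2-AS1 (−0.14 and −0.16), MCM3AP-AS1 (0.17 and −0.28) and MAPKAPK5-AS1 (0.14 and −0.07) were not called either. SBF2-AS1 rose in Molm13 by 0.63 (8.01 and 5.62 to 11 and 10.2 CPM), a call lost without shCtrl replicate 2, and had −0.40 in THP1, a difference that was called (−1.02). LEF1-AS1, IRF1-AS1 and HOXB-AS1 were not among the 179.

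The machinery that degrades or ends such transcripts was examined from a list of 67 genes. In Molm13, 7 were called lower and none higher, with a median log2 fold change of −0.15, where 13.5% of the genes with the minimum of counts were called lower and 14.0% higher. The 7 calls are thus no more than the share over all such genes. They included the exosome subunits EXOSC3 (−0.60) and EXOSC9 (−0.76). PABPN1 (−0.61) and PAPD7 (−0.62) were listed under the NEXT, PAXT and TRAMP complexes. The others were the 3′-end processing factors CPSF2 (−0.94), CPSF4 (−0.94) and NUDT21 (−1.01). In THP1, VWA9, an Integrator subunit, and CSTF3, a cleavage factor, were called higher (0.61 and 0.72), none was called lower and the median was 0.07. By group, the medians in Molm13 and THP1 were −0.38 and 0.02 for 13 exosome genes, −0.24 and 0.01 for 10 genes of the NEXT, PAXT and TRAMP complexes that feed it, −0.14 and 0.17 for 5 genes of 5′ to 3′ decay, 0.02 and 0.09 for 14 Integrator genes, −0.15 and 0.11 for 15 cleavage and polyadenylation genes, and −0.14 and 0.07 for 10 genes of nonsense-mediated decay. XRN2, the nuclear 5′ to 3′ exonuclease, had −0.20 and 0.17, neither called. The part of these genes in the levels of the antisense RNAs was not tested.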

How the data were processed

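Poly(A) RNA of 8 libraries (2 lines, shCtrl or shPRMT9, 2 per group) was sequenced by HiSeq after Kapa mRNA HyperPrep. The authors aligned reads to hg38 and counted them per gene; the submitters' processing notes name TopHat2 2.0.8, HTSeq 0.11.2 and edgeR 3.30.3. The deposited values are whole-number counts without normalization. The annotation release and strand setting are not given in the sources used here. Coordinates are those of the Molm13 table, the same as in GENCODE 29 for 169 of the 179 genes.

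From the counts onward, each line was fitted in R 4.3.3 with edgeR 4.0.16 (TMM, filterByExpr, quasi-likelihood test of shPRMT9 against shCtrl, Benjamini-Hochberg adjustment; 16446 genes tested for Molm13 and 16294 for THP1), and all 8 libraries together (19288 genes) for the difference between lines. Called means an adjusted p under 0.05 and a fold over 1.5. Each standard error was taken as the size of the log2 fold change over the root of its F value. CPM and RPKM were computed here from library totals and the exon lengths of the Molm13 table. Libraries overlap when their CPM ranges do. The fits were tested on simulated counts. Counts of replicates differed by more than sampling noise (chi-square per gene 1.35 to 2.17).

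Members and lists were chosen with earlier results of these data known. Genes named are those called the same way in both lines, the 6 largest called rises and the 6 largest called falls without overlap in each line, those called against a called partner, the 5 largest differences each way, the 3 highest and lowest by RPKM, and a fixed set of studied antisense genes. Others are named as members of a count, or, like C1RL and XRN2, after their values were seen. Partners were matched by the symbol before -AS1. Partner roles were assigned by lists of symbol patterns. Promoter windows are RefSeq's (250 bases before to 50 after the start), matched by current or table symbol, with the first listed window of a gene on a primary chromosome. Some members are counted but not reported by name here.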

Additional observations from a re-analysis of the deposited data

Results flagged for a closer look

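For 20 of the named antisense genes, the common edgeR fit called a difference in the shPRMT9 effect from line to line. The values are the log2 fold change in THP1 minus that in Molm13. It was lower in THP1 for NAPA-AS1 (−2.40), ADIRF-AS1 (−2.07), PDCD4-AS1 (−1.86), SRP14-AS1 (−1.74), OSER1-AS1 (−1.65), SOCS2-AS1 (−1.32), C1RL-AS1 (−1.19), CCDC18-AS1 (−1.18), CPB2-AS1 (−1.08), CBR3-AS1 (−1.03), SBF2-AS1 (−1.02), LRRC75A-AS1 (−0.81) and JMJD1C-AS1 (−0.60). It was higher in THP1 for RUSC1-AS1 (1.45), NUP50-AS1 (1.36), ARRDC1-AS1 (1.34), ASH1L-AS1 (1.14), TMEM147-AS1 (1.08), USP46-AS1 (0.96) and RNASEH1-AS1 (0.71). The difference was not called in every refit for CPB2-AS1 (lost in 6 of 13), ASH1L-AS1 (4), USP46-AS1 (4), RNASEH1-AS1 (3), JMJD1C-AS1 (2), CBR3-AS1 (1, DESeq2) and RUSC1-AS1 (1, without Molm13 shCtrl replicate 1). Libraries whose absence ended a call were Molm13 shCtrl replicate 2, Molm13 shPRMT9 replicate 1, both THP1 shCtrl libraries and THP1 shPRMT9 replicate 1 for CPB2-AS1, Molm13 shCtrl replicate 1, THP1 shCtrl replicate 1 and THP1 shPRMT9 replicate 2 for ASH1L-AS1, Molm13 shCtrl replicate 1, Molm13 shPRMT9 replicate 2 and THP1 shPRMT9 replicate 1 for USP46-AS1, Molm13 shPRMT9 replicate 1 and THP1 shPRMT9 replicate 2 for RNASEH1-AS1, and Molm13 shCtrl replicate 2 and THP1 shPRMT9 replicate 2 for JMJD1C-AS1. The calls of CPB2-AS1, ASH1L-AS1, USP46-AS1 and RNASEH1-AS1 were also lost in DESeq2. The lines come in separate tables, so a difference between lines and a difference in handling cannot be told apart.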

How the results depend on the processing

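The main counts were 60 genes called in Molm13, 17 in THP1, 4 the same way in both lines and 46 different between the lines, with 85 and 90 same-sign pairs in Molm13 and THP1. With RLE factors, library size alone, no filter on low counts or a minimum of 10 counts, each of these stayed within 1.5 times its main value, as did the 4 counts of calls with the RPKM minimum of 1, for which no pairs were counted. DESeq2 called 9 in THP1. By adjusted p alone, 96 were called in Molm13, 50 in THP1 and 22 the same way in both. By that rule 75.0% of all genes with the minimum of 20 counts passed in Molm13 and 45.4% in THP1. With a fold over 2, 20 were called in Molm13, 5 in THP1, 0 the same way in both and 23 different between the lines. With a minimum of 50 counts (113 genes), the numbers were 35, 8 and 27 called in Molm13, in THP1 and as different, and 55 and 58 same-sign pairs in Molm13 and THP1.

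With the replicate number as a block, 60 genes were called in Molm13, 17 in THP1, 4 the same way in both and 44 as different, with 86 and 90 same-sign pairs. Same-numbered libraries did not deviate together (r = −0.087 in Molm13 and −0.0146 in THP1, with 2 pairs each). With 2 libraries per group and differences that hold sampling noise, this cannot exclude that the numbers pair the samples. Leaving out each library in turn gave 57 to 60 called in Molm13, 14 to 16 in THP1, 4 to 6 the same way in both, 43 to 49 different, and 85 to 97 and 88 to 93 same-sign pairs. Of the single calls, 43 of 60 in Molm13, 6 of 17 in THP1 and 29 of 46 differences held under all refits, and none changed sign. The cause of the other losses was not tested.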
